A study of Mus musculus with 8 samples.

Results

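Acetylated chromatin was compared between 2 kinds of mouse neuronal culture in the silenced state, using the 4 libraries, of 8 in the series, that received no KCl. The libraries were chosen by their titles: 2 name MGE, 2 name CTX, and all 4 carry the word unstimulated. MGE is the usual abbreviation of the medial ganglionic eminence and CTX of cortex. All 4 came from C57/BL6 embryos. Firing and NMDA receptors were blocked overnight from day 6 in vitro with 1 µM tetrodotoxin (TTX) and 100 µM D-AP5, and these cultures then received no stimulus on day 7. Both kinds of culture carry these drugs, so neither shows an undrugged state. All libraries share fixation in 1% formaldehyde, the antibody ab4729 and reads of 50 bp. The labels disagree on the material. Embryonic day 14 stands in the CTX titles, no day stands in the MGE titles, and the source field of every library gives embryonic day 16. The cell type field names cortical neurons also for the libraries titled MGE. Replicates are called biological with no statement of what was kept apart, so a p-value reflects how far these particular libraries scatter, and that scatter may be technical.

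The medial ganglionic eminence is a transient zone of the ventral forebrain. It gives rise to many GABAergic interneurons of the cortex, including those that make somatostatin or parvalbumin, under the homeobox factors Nkx2-1 and Lhx6, whereas the dorsal zone that becomes cortex produces glutamatergic projection neurons through other factors and later astrocytes. Acetylation of lysine 27 on histone H3 (H3K27ac) marks active promoters and enhancers, so the set of acetylated regions differs between cell types.

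Each library is a list of peaks, that is, of intervals called as enriched for H3K27ac. No read numbers come with the lists used here, and depth is therefore unknown. The lists held 36241 to 64878 peaks over 21.1 to 42.9 Mb, with CTX replicate 2 the longest. Each was reduced to its 21.1 Mb of strongest peaks by p-value, which kept 100% and 86.8% of the MGE peaks and 85.0% of those of CTX replicate 1, but 34.2% of those of CTX replicate 2. The kept peaks of CTX replicate 2 were wider (median 854 bp, against 475 to 529 bp) and had a higher median fold enrichment (4.10, against 3.26 to 3.58) than in the other libraries. The part of this in the results was not tested beyond the alternatives given. In 500-bp bins the MGE libraries shared 53.3% of the bins called in either, the CTX libraries 52.8%, and libraries of different cultures 32.1% to 34.9%.

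The value followed for each gene is its called length: the kb of kept peaks whose nearest protein-coding gene, up to 100 kb away, is that gene. A difference is log2(MGE kb + 0.5) minus log2(CTX kb + 0.5) with its standard error (SE) from limma, and a gene is called when its adjusted p was under 0.05. Of 21631 genes, 10411 had a mean of at least 0.5 kb and were tested. Called length was higher in MGE at 585 genes (5.62% of those tested) and higher in CTX at 577 (5.54%). The median difference over all tested genes was -0.06, and 4402 of them had a positive value. Without a test, 764 genes (7.34%) had both MGE libraries above both CTX libraries and means at least 2-fold apart, and 784 (7.53%) had the reverse. With no minimum fold these numbers were 2350 (22.6%) and 3434 (33%), so libraries that do not overlap are common in this comparison. The kept lengths did not overlap at any called gene (585 of 585 and 577 of 577), so a lack of overlap adds nothing to a call. At 157 of the genes called for MGE and 121 of those called for CTX, the other culture had no kept peak. Both of its libraries then sit at the floor and show no scatter. The adjusted p of such a gene therefore does not measure the scatter of that culture. In bulk cultures fewer cells of a type and less acetylation per cell cannot be told apart.

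These calls depend on how the lists are treated. All deposited peaks gave 27 and 137 calls, ranking by fold enrichment 18 and 15, and a −log10 q of at least 5 in place of equal lengths 0 and 0 (unadjusted p under 0.05 at 106 and 629 genes). With 1 library left out limma called 0 genes in either direction, with an unadjusted p under 0.05 at 710 to 1443 genes for MGE and 995 to 1293 for CTX. Such a fit has 1 residual degree of freedom, so its lack of calls does not show that the differences rest on that library. Of 85 named genes that were called, 8 were also called with all deposited peaks, with equal numbers of peaks and with ranking by fold. They were Nkx2-1 and Rtp4, higher in MGE, and Cacna2d1, Lama2, Dspp, Zfp469, Gm14461 and Gm3985, higher in CTX.

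**Figure D1:**
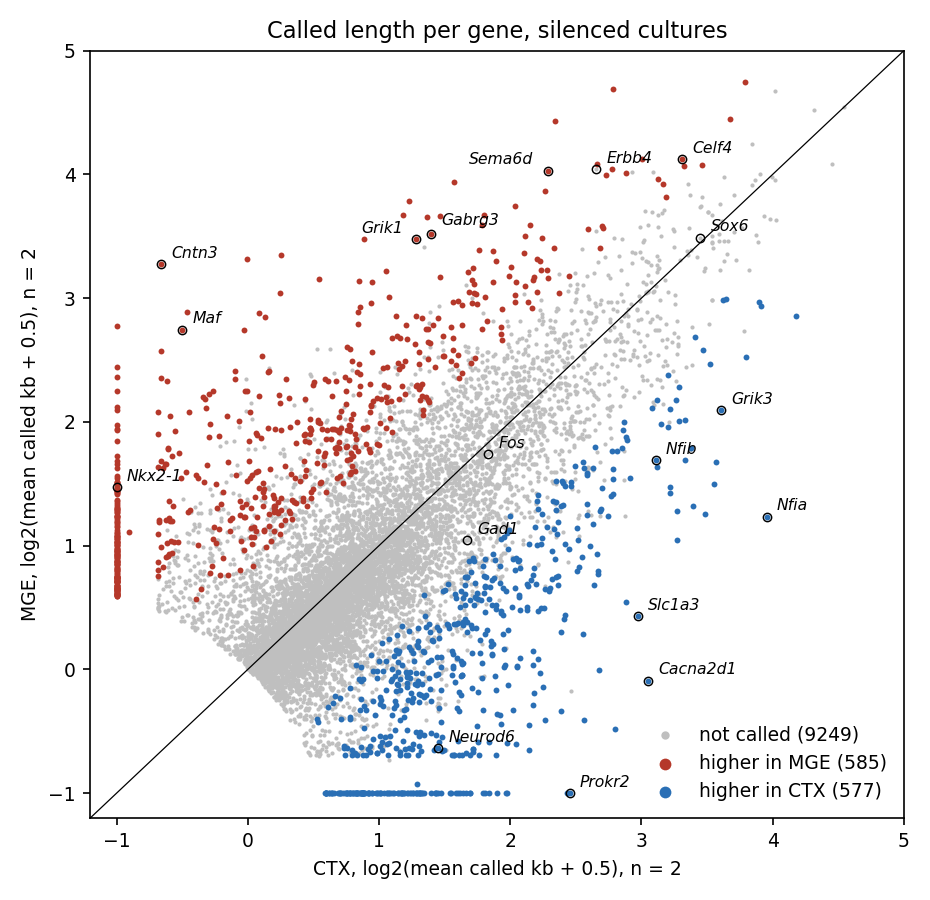
Mean called length per gene in the 2 CTX libraries (horizontal) and the 2 MGE libraries (vertical), each as log2(kb + 0.5), for the 10411 genes tested. Coloured points are the 585 genes called higher in MGE and the 577 called higher in CTX, and they lie on either side of the line of equal lengths.

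Over all tested genes the called shares were 5.62% for MGE and 5.54% for CTX, and each list count below is to be read beside them. Transcription factors of GABAergic neurons and the ganglionic eminences had 6 members called higher in MGE (37.5%) and 1 higher in CTX (6.25%). Of these factors 16 were tested and 21 listed, with a median difference of 0.08. Nkx2-1, the factor that specifies the medial eminence, had 2.23 and 2.31 kb in the MGE libraries and 0 in both CTX libraries (limma adjusted p = 0.012). The gene lies at chr12:56531935-56536908 (mm10), and the deposited CTX lists held no peak at it either. Lhx6, which acts downstream of Nkx2-1 in migrating interneurons, had 2.10 and 1.51 kb in MGE and 0 in CTX (adjusted p = 0.014), again with no deposited CTX peak. The 2 cultures did not overlap at either gene, as at every called gene. The peaks themselves were modest: the highest fold was 3.31 and 3.38 at Nkx2-1, at percentiles 31.9 and 57.3 of the kept lists, and 2.02 and 1.90 at Lhx6, at percentiles 0.537 and 0.364.

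Maf, a bZIP factor of interneurons from the medial eminence, had 6.61 and 5.81 kb in MGE and 0 and 0.416 kb in CTX, a difference of 3.31 ± 0.33 (SE, adjusted p = 0.014). Stretches called in both MGE and neither CTX library lay at the end of the gene (chr8:115703253-115706894) and 39.6 and 46.6 kb above it. With equal numbers of peaks Maf was no longer called. Sp9, a zinc finger gene of ganglionic eminence progeny, had 2.18 and 1.82 kb against 0.701 and 0.594 kb (1.12 ± 0.17, adjusted p = 0.026). Its difference was -0.01 with the −log10 q threshold. Gsx2, a homeobox gene of ventral progenitors, had 1.45 and 1.53 kb against 0.264 and 0 kb (1.69 ± 0.27, adjusted p = 0.028). In the kept lists both MGE libraries exceeded both CTX libraries at these 3 genes, as at every gene called for MGE. In the deposited lists CTX replicate 2 had 1.703 kb at Gsx2, above both MGE libraries, and 2.24 kb at Sp9, against 2.57 and 1.82 kb in MGE. The KCl libraries had 0 and 0.684 kb at Gsx2 in MGE and 0 in both CTX libraries, which overlapped.

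Other members did not separate the cultures or did so the other way. Dlx2, a factor shared by GABAergic lineages of the ventral forebrain, had 2.44 and 2.41 kb in MGE and 8.42 and 5.62 kb in CTX (-1.34 ± 0.23, adjusted p = 0.033). CTX-only stretches assigned to it lay 63.2 and 79.2 kb above its span. Its difference was -0.46 with genes up to 50 kb away, -0.12 with the gene body and 20 kb around it, and 0.86 with peaks ranked by fold. Dlx5 had 1.75 and 1.348 kb in MGE and 1.03 and 1.82 kb in CTX, which overlapped. Etv1, active in deep-layer neurons as well as interneurons, had 0 and 0.917 kb in MGE and 3.30 and 2.51 kb in CTX without passing (adjusted p = 0.081). Nkx6-2 and Npas1 had no peak in the deposited lists, and the only deposited peak at Lhx8 covered 0.568 kb in MGE replicate 1.

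**Figure D2:**
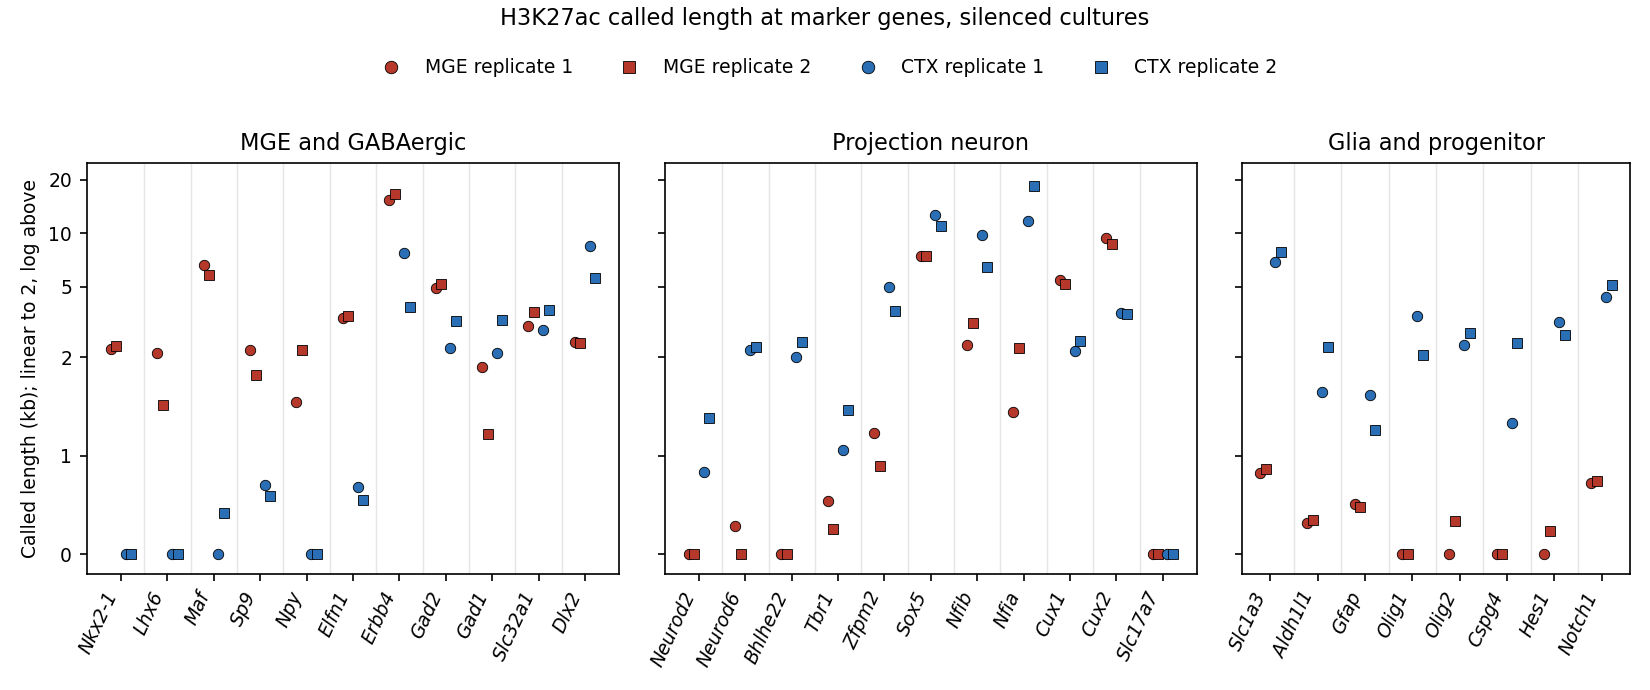
Called length in kb in each of the 4 libraries at marker genes of MGE and GABAergic neurons, of projection neurons, and of glia and progenitors, with one symbol per library coloured by culture. Nkx2-1 and Lhx6 have no kept peak in CTX, Neurod2, Bhlhe22, Olig1 and Cspg4 none in MGE, and Slc17a7 none in any library.

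The genes that make and move GABA gave no call in either direction among 6 tested, with a median difference of 0.32. Gad1, the gene of one GABA-synthesising enzyme, had 1.90 and 1.22 kb in MGE and 2.11 and 3.24 kb in CTX (-0.62 ± 0.28, adjusted p = 0.24). Gad2, the gene of the other, had 4.90 and 5.17 kb in MGE and 2.25 and 3.19 kb in CTX (0.80 ± 0.20, adjusted p = 0.077). The groups did not overlap at either gene, in opposite directions, and neither passed. Slc32a1, the vesicular GABA transporter gene, had 3.00 and 3.58 kb against 2.84 and 3.70 kb and overlapped.

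Among 10 genes listed for interneuron receptors and migration, 2 were called higher in MGE and none in CTX, with a median of 0.54. Elfn1, a synaptic adhesion gene of somatostatin interneurons, had 3.31 and 3.43 kb in MGE and 0.679 and 0.546 kb in CTX (1.80 ± 0.16, adjusted p = 0.014). Plxna4, a semaphorin receptor gene, had 6.02 and 6.78 kb against 2.73 and 2.46 kb (1.16 ± 0.16, adjusted p = 0.021), but -0.01 with all deposited peaks and -0.33 with the −log10 q threshold. Erbb4, the neuregulin receptor of migrating interneurons, had 15.4 and 16.6 kb in MGE and 7.74 and 3.85 kb in CTX. The groups did not overlap, but the gene missed the threshold (1.46 ± 0.32, adjusted p = 0.057). These lengths came from 29 and 34 kept peaks in MGE and 11 and 4 in CTX. The chemokine receptor gene Cxcr4 had 4.75 and 5.11 kb against 5.25 and 1.92 kb and overlapped.

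Interneuron peptides and calcium-binding proteins gave 1 call for MGE and 2 for CTX among 6 tested of 10. The median difference was 0.87, and 4 of the 6 were positive. Npy, the neuropeptide Y gene, had 1.54 and 2.19 kb in MGE and no kept CTX peak (adjusted p = 0.014), while the deposited list of CTX replicate 2 had 1.11 kb there. Nos1, the neuronal nitric oxide synthase gene, had 0.267 and 0.475 kb in MGE and 2.10 and 1.85 kb in CTX (-1.51 ± 0.19, adjusted p = 0.019). A CTX-only stretch lay 24.8 kb below its span, and with the gene body and 20 kb the difference was 0.18. Penk, the proenkephalin gene, had 0 and 0.237 kb in MGE and 1.13 and 1.54 kb in CTX (adjusted p = 0.035). Sst, the somatostatin gene, had 0.711 and 1.24 kb in MGE and 0 and 0.384 kb in CTX (1.12 ± 0.37, adjusted p = 0.14). Its groups did not overlap, and an MGE-only stretch lay 6.2 kb above its span. Pvalb, the parvalbumin gene, had 0.883 and 0.599 kb against 0.313 and 0.307 kb (adjusted p = 0.17). Cort and Crhbp were too short to be tested, with 0.945 and 0.577 kb and 0.514 and 1.26 kb in MGE and no kept CTX peak.

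Transcription factors of cortical projection neurons were called higher in CTX at 7 and higher in MGE at 2 of 20 tested members, with a median of -0.78. Neurod2, a bHLH factor of postmitotic excitatory neurons, had no deposited peak in MGE and 0.839 and 1.38 kb in CTX (adjusted p = 0.030). Neurod6, of the same family, had 0.284 and 0 kb in MGE and 2.20 and 2.28 kb in CTX (-2.13 ± 0.26, adjusted p = 0.018). Bhlhe22, a further bHLH factor of the cortex, had no deposited peak in MGE and 2.00 and 2.45 kb in CTX (adjusted p = 0.012). At all 3 genes both CTX libraries exceeded both MGE libraries, as at every gene called for CTX.

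The nuclear factor I genes, which act in neurons and in the onset of gliogenesis, had large summed lengths in CTX, although each CTX-only stretch at them was 1.0 kb long. Nfia had 1.44 and 2.26 kb in MGE and 11.6 and 18.4 kb in CTX (-2.71 ± 0.30, adjusted p = 0.016). Nfib had 2.33 and 3.12 kb against 9.80 and 6.44 kb (-1.40 ± 0.26, adjusted p = 0.039). Nfix had 0.354 and 1.84 kb against 4.41 and 4.21 kb without passing (adjusted p = 0.096). Zfpm2, a deep-layer cofactor gene, had 1.23 and 0.899 kb in MGE and 4.99 and 3.65 kb in CTX (-1.62 ± 0.22, adjusted p = 0.022). Sox5, which controls the timing of deep-layer fates, had 7.43 and 7.44 kb against 12.7 and 11.03 kb and lay just inside the threshold (adjusted p = 0.049). Tbr1, the layer 6 factor, had 0.545 and 0.257 kb against 1.06 and 1.46 kb and lay outside it (adjusted p = 0.076).

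Cux1 and Cux2, homeobox factors known from upper layers and also active in interneurons, were the members called for MGE. Cux2 had 9.37 and 8.71 kb in MGE and 3.56 and 3.50 kb in CTX (1.24 ± 0.14, adjusted p = 0.016). Cux1 had 5.47 and 5.13 kb against 2.16 and 2.46 kb (1.05 ± 0.16, adjusted p = 0.025). Of 11 tested genes of glutamatergic transmission none was called, and the median was 0.19. Slc17a6, the vesicular glutamate transporter gene of young excitatory neurons, had 1.02 and 1.504 kb in MGE and 0.683 and 1.02 kb in CTX (adjusted p = 0.38). Slc17a7, the transporter gene of mature cortical excitatory neurons, had no kept peak in any library, and its only deposited peaks covered 0.894 kb in CTX replicate 2.

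Markers of other cell types also moved with the culture, and their part in the differences above was not tested. For astrocytes 3 of 9 tested markers, of 12, were called higher in CTX and none in MGE, and the summed length was 4.81 and 7.71 kb in MGE and 18.7 and 21.0 kb in CTX. Slc1a3, a glutamate transporter gene of radial glia and astrocytes, had 0.825 and 0.870 kb in MGE and 6.88 and 7.84 kb in CTX (-2.54 ± 0.16, adjusted p = 0.012). Aldh1l1 had 0.315 and 0.349 kb against 1.65 and 2.29 kb (adjusted p = 0.019), and Gfap 0.506 and 0.481 kb against 1.61 and 1.27 kb (adjusted p = 0.038). S100b and Aldoc had no kept peak in any library.

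Oligodendrocyte lineage markers gave 3 calls for CTX and none for MGE among 9 tested of 12, with summed lengths of 13.5 and 14.5 kb in MGE and 25.03 and 22.6 kb in CTX. Olig1, a bHLH factor of the lineage, had no deposited peak in MGE and 3.42 and 2.06 kb in CTX (adjusted p = 0.014). Its neighbour Olig2 had 0 and 0.337 kb against 2.36 and 2.72 kb (-2.23 ± 0.29, adjusted p = 0.020). Cspg4, the gene of the NG2 proteoglycan of precursors, had no deposited peak in MGE and 1.33 and 2.40 kb in CTX (adjusted p = 0.019). The myelin gene Mbp had 1.57 and 2.04 kb against 1.90 and 1.95 kb and overlapped.

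Progenitor markers had 2 calls for CTX and none for MGE among 7 tested of 12, with summed lengths of 10.9 and 9.97 kb in MGE and 18.6 and 19.1 kb in CTX. Hes1, a Notch target gene, had 0 and 0.237 kb in MGE and 3.14 and 2.65 kb in CTX (-2.48 ± 0.25, adjusted p = 0.014). Notch1 had 0.724 and 0.741 kb against 4.38 and 5.10 kb (-2.08 ± 0.16, adjusted p = 0.012), but 1.08 with peaks ranked by fold. Sox2 had 5.80 and 3.15 kb against 3.81 and 3.10 kb and overlapped.

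Neurons of neighbouring origins were covered by short lists. Of 8 tested genes of caudal eminence interneurons 2 were called, both for CTX. These were Sp8 (0 and 0 kb in MGE, 2.80 and 0.995 kb in CTX, adjusted p = 0.044) and the cannabinoid receptor gene Cnr1 (0.596 and 0.919 kb against 1.99 and 1.92 kb, adjusted p = 0.045), whose difference was 0.18 with the −log10 q threshold. Of 8 tested genes of the lateral eminence and striatum Meis2 alone was called, with 1.64 and 2.23 kb in MGE and 5.28 and 6.58 kb in CTX (-1.40 ± 0.21, adjusted p = 0.025). Of 9 septal, pallidal and cholinergic markers Zic2 alone was long enough to test. It had no deposited peak in MGE and 1.36 and 2.16 kb in CTX (adjusted p = 0.016), while 6 of the 9, including Chat, had no kept peak in any library. Of 8 Cajal-Retzius markers 2 were tested and both were called for MGE. Reln had 4.99 and 5.14 kb in MGE and 2.21 and 1.22 kb in CTX (adjusted p = 0.042), and Lhx5 1.49 and 1.77 kb against 0 and 0 kb (adjusted p = 0.014). Trp73, another listed marker of Cajal-Retzius cells, had no deposited peak in the 4 libraries. Reelin is also made by cortical interneurons, and which cells carry the Reln and Lhx5 peaks was not tested.

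Microglial markers had no kept peak in any library at 7 of 12 genes, among them Cx3cr1, Itgam, Aif1 and Spi1, and their summed length was 6.62 and 6.64 kb in MGE and 3.49 and 4.21 kb in CTX. Only 2 of the 12 were tested, and 1 was called for MGE (50%, against 5.62% over all tested genes). The called gene was Csf1r, with 1.79 and 1.12 kb against 0 and 0 kb (adjusted p = 0.020). Its neighbour Pdgfrb, a mural cell gene, lies 21.4 kb from the MGE-only stretch there. For endothelial and mural cells 5 of 12 markers, among them Cldn5 and Tek, had no kept peak in any library. Only 4 of these 12 were tested, and 1 was called for MGE (25%) and 0 for CTX. The called gene was Kdr (0.708 and 1.302 kb against 0 and 0 kb, adjusted p = 0.042). Pecam1, in contrast, had 1.53 and 1.79 kb in MGE and 2.94 and 4.05 kb in CTX without passing (adjusted p = 0.067).

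**Figure D3:**
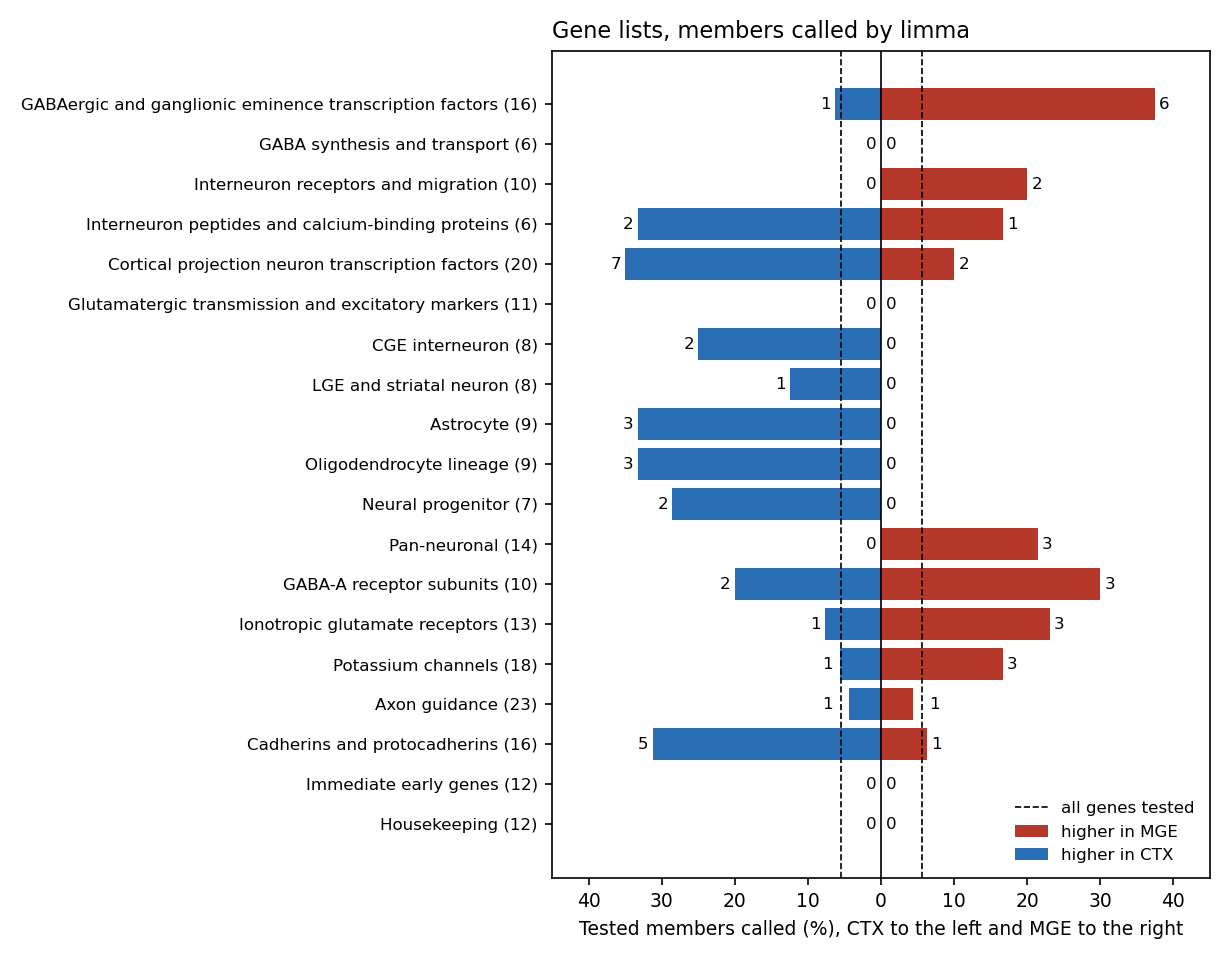
Share of the tested members of gene lists called by limma as higher in CTX (to the left) or in MGE (to the right), in percent. Dashed lines give the shares over all tested genes, 5.54% and 5.62%. The septal, Cajal-Retzius, microglial, endothelial and silent-gene lists had few tested members and are not drawn. The GABAergic transcription factors (6 of 16) and the cortical ones (7 of 20) have long bars in opposite directions.

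General neuronal genes had peaks in both cultures. Of 14 tested, 3 were called for MGE and none for CTX, with a median of 0.42. Celf4, an RNA-binding protein gene, had 16.4 and 17.5 kb in MGE and 8.84 and 10.0 kb in CTX (0.82 ± 0.12, adjusted p = 0.025). It held 4 MGE-only stretches and also a CTX-only stretch of 1.0 kb. Elavl4, another, had 7.58 and 6.91 kb against 2.83 and 2.88 kb (1.21 ± 0.14, adjusted p = 0.017). Syt1, the calcium sensor gene of synaptic vesicles, had 7.84 and 7.49 kb against 3.32 and 2.37 kb (adjusted p = 0.025). Tubb3, the neuronal tubulin gene, had 1.37 and 1.27 kb against 1.27 and 1.346 kb and overlapped.

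Subunits of neurotransmitter receptors differed gene by gene. Of 10 tested GABA-A receptor subunits 3 were called for MGE and 2 for CTX. Gabrg3 had 11.6 and 10.4 kb in MGE and 2.68 and 1.59 kb in CTX (2.15 ± 0.24, adjusted p = 0.016), and Gabrg1 had 4.42 and 4.77 kb against 0.714 and 0.737 kb (2.06 ± 0.16, adjusted p = 0.012). Gabra5 lay just inside the threshold (0.76 ± 0.16, adjusted p = 0.049) and had -1.55 with the −log10 q threshold. Called for CTX were Gabra4, with 0.576 and 0.613 kb in MGE and 2.67 and 2.88 kb in CTX (-1.58 ± 0.15, adjusted p = 0.014), and its neighbour Gabrb1, with 3.73 and 3.93 kb against 7.66 and 8.27 kb (-0.97 ± 0.14, adjusted p = 0.024). Gabrb1 held a CTX-only stretch of 1.5 kb and an MGE-only stretch of 1.0 kb.

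The kainate receptor genes split as well. Grik1 had 11.1 and 10.2 kb in MGE and 2.73 and 1.12 kb in CTX (2.29 ± 0.36, adjusted p = 0.027). Grik2 had 9.81 and 9.85 kb against 3.98 and 3.61 kb (1.27 ± 0.14, adjusted p = 0.016), and -0.13 with the −log10 q threshold. Grik3 had 3.57 and 3.98 kb in MGE and 11.2 and 12.1 kb in CTX (-1.51 ± 0.14, adjusted p = 0.014), with 3 CTX-only stretches inside the gene. Grik5 had 3.79 and 3.21 kb against 3.30 and 3.62 kb and overlapped. The list of 13 tested ionotropic glutamate receptor genes had 3 calls for MGE (23.1%) and 1 for CTX (7.69%, against 5.54% over all tested genes). The third MGE call was the AMPA receptor gene Gria3 (1.94 and 1.61 kb against 0.253 and 0 kb, adjusted p = 0.022). Grin1, the gene of the obligatory NMDA receptor subunit, had 1.02 and 0.903 kb against 1.19 and 0.802 kb.

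Of 18 potassium channel genes 3 were called for MGE (16.7%, against 5.62% over all tested genes). For CTX 1 was called (5.56%, near the 5.54% over all). Kcnmb2, an accessory subunit gene of the BK channel, had 4.30 and 3.92 kb in MGE and 0.597 and 0.525 kb in CTX (2.12 ± 0.16, adjusted p = 0.012). Kcnma1, the pore-forming subunit gene of the same channel, had 9.32 and 7.65 kb against 3.04 and 1.49 kb (1.75 ± 0.32, adjusted p = 0.037). Kcnh7 was the third (adjusted p = 0.032). Kcnt2 was called for CTX (0.714 and 0.481 kb against 1.70 and 1.72 kb, adjusted p = 0.035). Kcnc2, the Kv3.2 gene of fast-spiking interneurons, had 4.602 and 5.21 kb in MGE and 1.24 and 0 kb in CTX, which did not overlap and did not pass (adjusted p = 0.068).

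Of 16 tested cadherins and protocadherins 5 (31.25%) were called for CTX, Cdh4, Cdh6, Cdh11, Cdh20 and Pcdh7. For MGE 1 was called, Cdh12 (6.25%, near the 5.62% over all tested genes), and the median of the list was -0.62. Cdh20 had 1.29 and 1.06 kb in MGE and 4.20 and 5.01 kb in CTX (-1.60 ± 0.18, adjusted p = 0.016). Cdh12 had 2.70 and 2.41 kb against 0.824 and 0.894 kb (adjusted p = 0.021). Most of its CTX length, 0.817 and 0.819 kb, lay in a CTX-only stretch inside the gene that no deposited MGE peak touched. Of 23 tested axon guidance genes 1 was called in each direction (4.35% each). These shares are below those over all tested genes (5.62% for MGE and 5.54% for CTX), so the list did not stand out by calls. Its median difference was 0.27, against -0.06 over all tested genes. Without a test, 5 of the 23 had libraries that did not overlap and means at least 2-fold apart with MGE higher, and 2 with CTX higher. Over all tested genes these shares were 7.34% and 7.53%. Sema6d, a transmembrane semaphorin gene, had 15.8 and 15.9 kb in MGE and 4.33 and 4.45 kb in CTX (1.74 ± 0.12, adjusted p = 0.012), although the deposited list of CTX replicate 2 covered 15.8 kb there. Plxna2, a semaphorin receptor gene, had 2.96 and 3.83 kb against 7.12 and 10.3 kb (-1.23 ± 0.24, adjusted p = 0.044).

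Immediate early genes, which neurons switch on with activity, gave no call among 12 tested of 20, with a median of -0.12. Fos had 3.30 and 2.38 kb in MGE and 3.29 and 2.83 kb in CTX, and Npas4 1.71 and 1.99 kb against 1.86 and 2.35 kb. Both overlapped, and with all deposited peaks 1 member of the list was called for CTX. Of 12 tested housekeeping genes none was called, and the median was 0.06. Of 16 genes silent in neurons 11 had no kept peak in any library. Of the 3 that were tested 1 was called for CTX (33.3%, against 5.54% over all tested genes) and 0 for MGE. The called gene was Ins1, an insulin gene (0.297 and 0.773 kb against 2.64 and 2.59 kb, adjusted p = 0.030). Its assignment rests on distance alone, by the same rule that was used for every gene here.

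The largest differences lay mostly outside the marker lists. For MGE the first 15 by size included Cntn3, Gm4868, Rbms3, Tmem132c, Cadps2, Adgrd1, Neb, Maf, Cacna2d2, Rtp4, Htr7, Cpq, Sepsecs and Nxph1. Cntn3, a contactin gene at chr6:102163304-102564614, had 8.67 and 9.67 kb in MGE and 0.265 and 0 kb in CTX (3.96 ± 0.26, adjusted p = 0.012). Cadps2, a priming factor gene of dense-core vesicles, had 7.504 and 6.30 kb against 0 and 0.454 kb (3.42 ± 0.35, adjusted p = 0.015), with 3 MGE-only stretches in the gene. Cacna2d2, an auxiliary calcium channel subunit gene, had 4.96 and 5.94 kb against 0.266 and 0 kb (3.26 ± 0.26, adjusted p = 0.012). Htr7, a serotonin receptor gene, had 4.22 and 3.35 kb and no kept CTX peak (adjusted p = 0.012). Nxph1, a neurexin ligand gene, had 8.09 and 5.68 kb against 1.12 and 0 kb (3.02 ± 0.59, adjusted p = 0.045) and was not called with equal numbers of peaks.

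Rtp4, a receptor transporter gene, had 3.78 and 4.74 kb in MGE and no kept peak in CTX (adjusted p = 0.012). Its MGE-only stretches at chr16:23652001-23653000 and chr16:23653501-23654500 lay 37.8 and 39.3 kb above Rtp4 and 236.6 and 235.1 kb below Sst, the next protein-coding gene. With the gene body and 20 kb around it the difference at Rtp4 was -0.20. The deposited list of CTX replicate 2 covered 0.253 kb there and that of replicate 1 none.

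For CTX the first 15 were Prokr2, Sv2b, Lama2, Cacna2d1, Plce1, Dspp, Gm14461, Lratd2, Gm3985, Zbtb18, Zfp469, Glt28d2, Gm11677, Tes and Nfia. Prokr2, a prokineticin receptor gene at chr2:132369705-132385502, had no deposited peak in MGE and 5.09 and 4.85 kb in CTX (adjusted p = 0.012), with CTX-only stretches at its end and 4.5 and 63.0 kb above it. Cacna2d1, a relative of Cacna2d2, had 0.357 and 0.520 kb in MGE and 8.70 and 6.88 kb in CTX (-3.14 ± 0.20, adjusted p = 0.012). The called lengths of these related subunit genes were thus higher in different cultures. Sv2b, a synaptic vesicle gene, had 0 and 0.429 kb against 6.64 and 6.25 kb (-3.35 ± 0.33, adjusted p = 0.014). Zbtb18, a repressor gene needed in cortical neurons, had 0 and 0.584 kb against 4.53 and 4.94 kb (-2.83 ± 0.40, adjusted p = 0.022). The laminin gene Lama2 had no deposited peak in MGE and 6.81 and 2.97 kb in CTX (adjusted p = 0.016).

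Absence from a kept list was not always absence from the deposited one. Of the 585 genes called for MGE 157 had no kept CTX peak, and 115 of these had a deposited CTX peak. Of the 577 called for CTX 121 had no kept MGE peak, and 16 of these had a deposited MGE peak. Of 40 named genes called for MGE, the deposited lengths of the cultures overlapped at 12: Cdh12, Celf4, Elfn1, Gabra5, Gria3, Gsx2, Kcnma1, Nxph1, Plxna4, Reln, Sp9 and Syt1. Of 45 named genes called for CTX they overlapped at 0. Trimming had kept 86.8% and 100% of the peaks of the MGE lists but 34.2% of those of CTX replicate 2. Deposited peaks therefore lengthen CTX far more than MGE and could hardly overturn a CTX call. These counts do not compare the soundness of the 2 directions.

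By region, 1334 stretches of at least 1.0 kb were called in both MGE libraries and neither CTX library (MGE-only), 1271 the reverse (CTX-only), and 3918 in all 4. MGE-only bins were 11.5%, CTX-only bins 10.7% and bins of all 4 libraries 19.5% of the 80797 bins called in any library. Shared stretches lay within 2 kb of a gene end in 67.05% of cases (95% exact binomial interval 65.6 to 68.5). MGE-only stretches did so in 7.80% (6.41 to 9.37) and CTX-only stretches in 12.9% (11.1 to 14.9), and the intervals cover counting error only. Elsewhere in genes lay 47.6% of MGE-only and 38.9% of CTX-only stretches. The median fold of MGE-only stretches was 3.36 and 3.12 in the MGE libraries, against 4.25 and 3.84 for shared ones. For CTX-only stretches it was 3.22 and 3.52 in the CTX libraries, against 3.86 and 4.44. No deposited CTX peak touched 54.2% of MGE-only stretches, and no deposited MGE peak touched 70.2% of CTX-only stretches. The deposited lists differ in length, so these 2 shares are not comparable either.

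Single genes held up to 5 such stretches. For MGE these included Tiam1, an exchange factor gene for Rac, Arid5b and Negr1. Tiam1 had 16.9 and 16.1 kb in MGE and 5.72 and 5.91 kb in CTX (1.43 ± 0.12, adjusted p = 0.012). For CTX Msra held 5, and Arpp21, Celf2, Fgf12, Anks1b and Tiam2 held 4 each. Arpp21, a phosphoprotein gene of forebrain neurons, had 2.03 and 1.73 kb in MGE and 12.4 and 9.01 kb in CTX (-2.22 ± 0.21, adjusted p = 0.014). Msra as a whole was not called, with 27.7 and 26.8 kb against 32.2 and 35.5 kb (adjusted p = 0.096). The longest MGE-only stretches, of 2.5 kb, lay in Gm572 at chr4:148666501-148669000, at an end of Epb41l4a and at the start of Tox2. The longest CTX-only stretches, also of 2.5 kb, lay in Rasa3 at chr8:13622501-13625000, in Frem1 and 61.2 kb below Stk32a.

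At transcription starts, the 300 bases from 250 before to 50 after each annotated start were read from RefSeq's table for GRCm38.p6 (mm10), with 21045 windows of 17274 genes. A window lay wholly in kept peaks of both MGE libraries and in none of either CTX library in 34 cases, the reverse held in 46, and 1626 windows were covered in all 4. Of the 34 only 9 were also free of deposited CTX peaks, against 42 of the 46 for deposited MGE peaks. The deposited list of CTX replicate 2 is the longest, so these counts do not compare the 2 directions. The MGE windows included those of Gad2, Nxph1, Elavl2, Rbms3, Tox2 and the neuropeptide Y receptor gene Npy2r. The CTX windows included those of Nfix, Cdh6, Ednrb, Tacr1 and Ptn. Deposited peaks of CTX replicate 2 covered the Gad2 and Nxph1 windows whole, and those of MGE replicate 1 the Tacr1 window. Sox6, an SRY-box factor of interneurons and progenitors, was the only gene with a window in each class. Shown are both Sox6 windows, the Npy2r and Nfix windows as examples free of deposited peaks of the other culture, and Gad2 for its role in GABA synthesis. They were chosen after their values were seen. Each is read 5′ to 3′ on the gene's strand. Capitals mark matches on either strand to TAATTA (a homeobox core), CAGATG and CATATG (E-boxes of bHLH factors) and GGGCGG (a GC box).
Sox6 upstream window, MGE, chr7:116030998-116031297, minus strand: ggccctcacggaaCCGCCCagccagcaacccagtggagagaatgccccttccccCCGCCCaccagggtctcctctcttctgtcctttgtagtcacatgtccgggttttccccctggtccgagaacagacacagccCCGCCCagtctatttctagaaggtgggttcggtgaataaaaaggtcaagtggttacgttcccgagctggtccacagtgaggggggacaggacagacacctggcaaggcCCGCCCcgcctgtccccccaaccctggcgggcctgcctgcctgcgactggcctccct
Sox6 downstream window, CTX, chr7:115824661-115824960, minus strand: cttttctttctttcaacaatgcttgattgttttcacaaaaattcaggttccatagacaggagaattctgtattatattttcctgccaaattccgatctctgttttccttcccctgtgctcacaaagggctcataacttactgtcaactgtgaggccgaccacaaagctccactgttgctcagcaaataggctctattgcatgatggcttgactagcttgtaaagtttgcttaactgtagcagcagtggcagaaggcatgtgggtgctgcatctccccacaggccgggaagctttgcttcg
Npy2r, MGE, chr3:82548036-82548335, minus strand: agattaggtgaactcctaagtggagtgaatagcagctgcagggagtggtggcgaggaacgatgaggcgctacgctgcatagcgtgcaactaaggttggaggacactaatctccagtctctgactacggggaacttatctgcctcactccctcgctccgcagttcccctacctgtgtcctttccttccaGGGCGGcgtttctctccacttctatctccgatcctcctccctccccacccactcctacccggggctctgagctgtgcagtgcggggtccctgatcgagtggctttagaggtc
Gad2, MGE, chr2:22622077-22622376, plus strand: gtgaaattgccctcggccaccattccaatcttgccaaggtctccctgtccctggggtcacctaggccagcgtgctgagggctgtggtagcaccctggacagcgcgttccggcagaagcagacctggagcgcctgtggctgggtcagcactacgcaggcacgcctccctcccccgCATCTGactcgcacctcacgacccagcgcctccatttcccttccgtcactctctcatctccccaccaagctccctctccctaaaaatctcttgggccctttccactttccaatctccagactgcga
Nfix, CTX, chr8:84780033-84780332, minus strand: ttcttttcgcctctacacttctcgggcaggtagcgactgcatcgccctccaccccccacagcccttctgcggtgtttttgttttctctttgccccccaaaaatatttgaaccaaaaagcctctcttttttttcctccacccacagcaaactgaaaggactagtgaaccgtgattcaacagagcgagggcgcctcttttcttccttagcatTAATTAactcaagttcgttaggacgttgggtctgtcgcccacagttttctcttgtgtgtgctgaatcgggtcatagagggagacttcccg
TAATTA was in 4.47% of all windows, 2.94% of the MGE windows and 2.17% of the CTX windows, where the Nfix window is the only one. CAGATG was in 14.4%, 8.82% and 15.2%, CATATG in 3.04%, 0% and 0%, and GGGCGG in 46.7%, 67.6% and 54.3%, against 62.5% for GGGCGG in the windows covered in all 4 libraries. A match describes letters in the window and is not a binding site.

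Sox6 had a like total in both cultures, 10.0 and 11.4 kb in MGE and 12.1 and 8.72 kb in CTX (0.06 ± 0.19, adjusted p = 0.91), while its intervals lay in different places. The downstream start shown above, 214.03 kb into the gene, lay in intervals of 0.973 and 1.54 kb in the CTX libraries, with a fold of 3.05 and 2.99, and MGE had no deposited peak in that window. Between 232.19 and 234.65 kb both MGE libraries had 3 intervals and neither kept CTX list had one. The upstream start, 7.70 kb into the gene, separates the cultures less clearly. It lay in intervals of 0.723 and 1.69 kb in MGE, with a fold of 2.08 in both. CTX replicate 1 had intervals from 6.67 to 7.32 kb and from 7.87 to 8.45 kb, on either side of the window, and the deposited list of CTX replicate 2 covered the window whole. The Gad2 window was covered in MGE with a fold of 1.65 and 1.63, and again in the deposited list of CTX replicate 2.

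**Figure D4:**
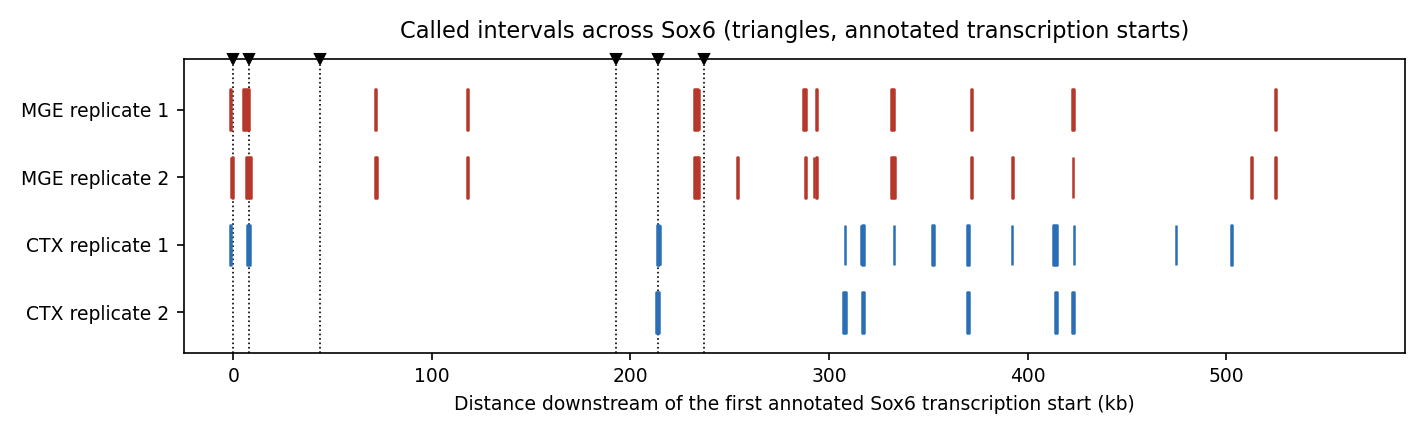
Kept intervals in each of the 4 libraries across Sox6, by distance in kb downstream of its first annotated transcription start, with the 6 annotated starts marked. Intervals at 214.03 kb are present in the CTX libraries alone, and those between 232.19 and 234.65 kb in the MGE libraries alone.

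The KCl libraries of the same kinds of culture (55 mM for 2 h), which took no part in choosing these genes, were set to the same called length. Trimming was again unequal. It kept 96.8% and 51.6% of the MGE KCl peaks and 62.0% and 31.2% of the CTX KCl peaks. Both MGE KCl libraries exceeded both CTX KCl libraries at 443 of the 585 genes called for MGE (75.7%), against 20.2% of all tested genes. The CTX KCl libraries exceeded the MGE KCl libraries at 459 of the 577 called for CTX (79.5%), against 34.7% of all tested genes. In both states CTX replicate 2 had the longest list, and the part of list length in these shares was not tested. Whether these libraries share preparations with the silenced ones is not stated in the labels. With KCl Nkx2-1 had 1.62 and 0.794 kb in MGE and 0 in CTX, and Maf 6.13 and 6.71 kb against 1.05 and 0 kb. Nfia had 1.37 and 1.10 kb in MGE and 17.2 and 21.3 kb in CTX, and Prokr2 0 in MGE against 4.52 and 6.12 kb. These 4 genes kept the order of the silenced state. Erbb4, outside the threshold there, had 19.5 and 15.6 kb in MGE and 3.47 and 1.51 kb in CTX.

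**Figure D5:**
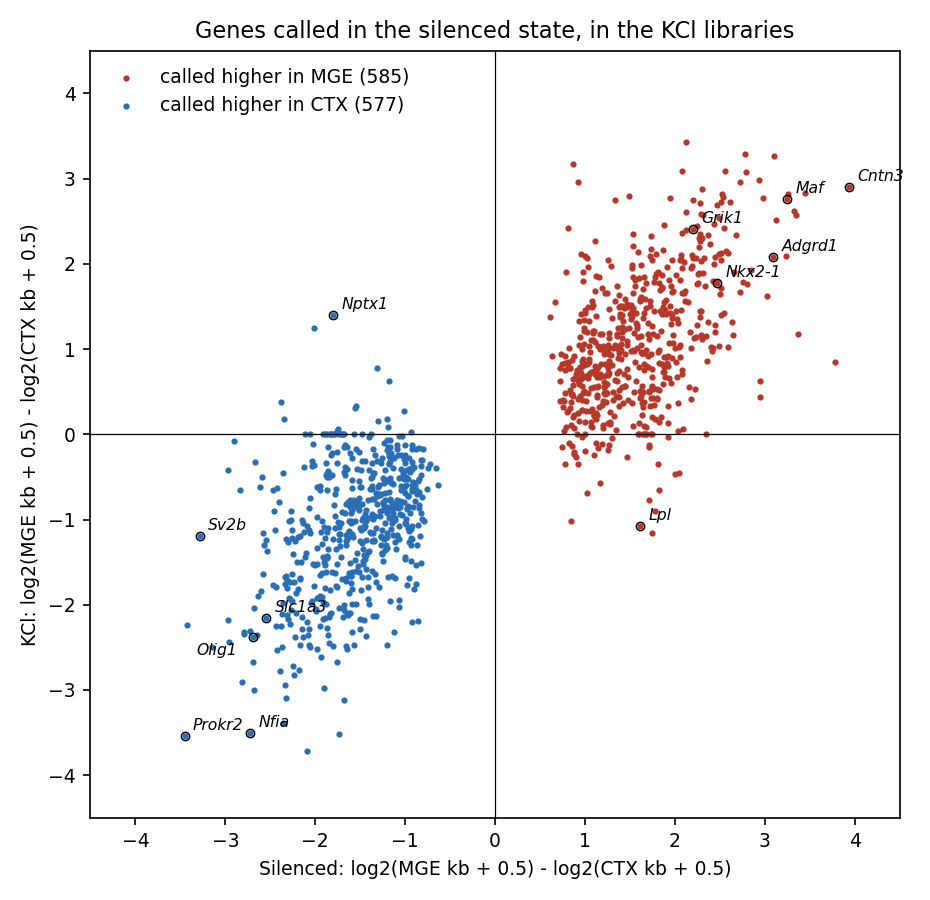
Difference between MGE and CTX in the silenced state (horizontal) and after KCl (vertical), each as log2(mean MGE kb + 0.5) minus log2(mean CTX kb + 0.5), for the genes called in the silenced state (585 higher in MGE, 577 higher in CTX). Most points lie in the lower left and upper right, and Nptx1 and Lpl are among the few that changed side.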

How the data were processed

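H3K27ac ChIP-seq peak lists of 4 silenced cultures (MGE and CTX, 2 libraries each) were analysed, and those of the 4 KCl libraries served for comparison. The submitters' processing notes name cutadapt 1.18, Bowtie2 2.3.3, MACS3 3.0.0a7, deepTools 3.4.3 and the build mm10. The role of each tool, the caller's settings and the use of an input control were not given in the sources used here. Each library has its own deposited broad peak list, with a fold ratio over background, a −log10 p-value and a −log10 q-value per peak, as the authors' caller gave them. The deposited integer score was not used in any result. Fold values are the authors', describe peaks within a list, and are not a measure of change.

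Peaks on chromosomes 1 to 19 and X were kept (12 peaks elsewhere were left out). Peaks were ranked by −log10 p and kept to 21.053 Mb per library. Without this step the longer list of CTX replicate 2 would give longer called lengths. Bins of 500 bp counted as called at 50% coverage or more, and regions are runs of at least 2 bins. Called bases went to the nearest RefSeq protein-coding gene span (21631 genes) up to 100 kb away. limma 3.58.1 (R 4.3.3), with a mean-variance trend and Benjamini-Hochberg adjustment, was fitted on log2(kb + 0.5) over the 10411 genes with a mean of at least 0.5 kb, with only the 4 silenced libraries and no covariate. For a gene at 0 in one culture no fold is given. An exact permutation test of 2 against 2 libraries cannot go below p = 0.33. The code was tested on simulated data. Python 3.11.15 was used for the rest.

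Same-numbered libraries did not deviate together (correlation -0.0515 over 10411 genes), so replicate numbers were not used as pairs. Named genes are the 15 largest called differences per direction, up to 8 tested members of each list with the largest absolute difference, 11 fixed markers, and genes of the 10 longest regions per culture. Other genes (Dlx5, Grik5, Grin1, Sox5, Cux1, Cux2, Tubb3, Sox6, Npy2r, Tiam1, Arpp21, Msra and those named in the promoter, region and closing paragraphs) were chosen after their values were seen. Some genes that these rules name are not reported here. The members and gene lists were chosen with earlier results of these data known. Alternatives covered the choice of peaks, the distance to genes, the pseudocount, the filter, the limma settings, a replicate block, the bins and each library left out.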

Additional observations from a re-analysis of the deposited data

Results flagged for a closer look

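Of the 585 genes called higher in MGE in the silenced state, 16 had both MGE KCl libraries below both CTX KCl libraries. Of the 577 called higher in CTX, 7 had the reverse. Over all 10411 tested genes these 2 KCl orders held at 34.7% and 20.2%. Such orders were thus much rarer among the called genes than over all genes. The difference between the silenced and the KCl order was not tested. The 16 included Mybl1, Prex2, Ankrd44, Tsen15, Vwc2, Mpp5, Ppp4r4, Zc3h3, Dtd1, Mfsd14a, Ica1, Lpl, Slc9a5, Sidt2 and Rpp25. The 7 were Nptx1, Tmem260, Dmc1, Fcnb, Ptpn13, Erich1 and Ftsj1. Lpl, the lipoprotein lipase gene, had 1.01 and 1.05 kb in MGE and 0 in CTX when silenced, and 0 in MGE and 0.735 and 0.374 kb in CTX with KCl. Nptx1, a pentraxin gene of excitatory synapses, had 0 in MGE and 0.971 and 1.52 kb in CTX when silenced, and 1.44 and 0.987 kb in MGE and 0.301 and 0 kb in CTX with KCl. These lengths are those of a few peaks.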

How the results depend on the processing

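Limits come from 2 libraries a culture, lists of unequal length and unknown depth. Genes called for MGE and CTX numbered 585 and 577, and 0 to 0 with 1 library left out, a fit with 1 residual degree of freedom. All called genes still tested there (488 to 585 for MGE, 489 to 577 for CTX) kept their sign, which follows from calls whose libraries do not overlap in any case. With all deposited peaks they were 27 and 137, ranked by fold 18 and 15, and with a −log10 q of at least 5 they were 0 and 0. For MGE equal numbers of peaks gave 321, and for CTX a mean of at least 2 kb gave 371, where fewer genes (2448) were tested. Among the genes called, 556 of 585 and 577 of 577 kept their sign with all deposited peaks. The longer list of CTX replicate 2 favours the sign of CTX calls there. With ranking by fold 579 of 583 and 506 of 533 kept it, and with the −log10 q threshold 312 of 370 and 468 of 469. Genes whose libraries did not overlap (764 and 784) were 264 and 1969 with all deposited peaks, and 275 and 209 with a mean of at least 2 kb. For CTX they were 1232 with equal numbers of peaks and 486 with a pseudocount of 1 kb, and for MGE 150 with the −log10 q threshold. Leaving out a library gave 629 to 1027 and 701 to 980.

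MGE-only regions (1334) were 881 with all deposited peaks, 443 with the −log10 q threshold, 6059 with any overlap of a bin, 177 with whole bins, 308 with 1000-bp bins, 7736 as single bins, 33 with runs of at least 4 bins, and 1544 to 3202 without a library. CTX-only regions (1271) were 2001, 4020 with any overlap, 363 with whole bins, 361 with 1000-bp bins, 7084 as single bins, 45 with runs of at least 4, and 1615 to 3498 without a library. The share at gene ends within 5 kb was 12.4% for MGE-only, 19.2% for CTX-only and 71.7% for shared regions. With all deposited peaks it was 5.22% for MGE-only and 65.1% for shared regions. Within 2 kb of a transcription start, an alternative chosen after seeing the data, it was 63.6% for shared regions.

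Differences that turned sign were Rtp4 (-0.20) and Nos1 (0.18) with the gene body and 20 kb, Dlx2 (0.86) and Notch1 (1.08) with ranking by fold, Plxna4 (-0.0091) with all deposited peaks, and, with the −log10 q threshold, Plxna4 (-0.33), Sp9 (-0.0146), Cnr1 (0.18), Gabra5 (-1.55) and Grik2 (-0.13). The cause was not tested. With a replicate block 600 and 590 genes were called, and of 85 named genes Neurod2, Cnr1, Gfap, Kdr and Gabra5 lost their call. The pairing check gave a correlation of -0.0515, so the numbers are not taken as pairs. Limiting the test to genes with a called base in all 4 libraries, also chosen after seeing the data, gave 397 and 422 genes. Over 864 list counts under the alternatives, 580 were within 1.5 times the count reported and 284 were not.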

Other observations

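The following 5 genes lie outside the lists and were chosen after their values were seen, so they stand for no wider group. Scn1a, the sodium channel gene of fast-spiking interneurons, had 4.08 and 4.45 kb in MGE and 0.297 and 0.368 kb in CTX (2.52 ± 0.16, limma adjusted p = 0.012). Slc12a5, the chloride transporter gene KCC2, had 1.80 and 1.52 kb against 0.660 and 0.514 kb. Npy2r, a receptor gene for neuropeptide Y, had 4.40 and 4.09 kb in MGE and 0.519 and 0.473 kb in CTX (2.25 ± 0.16, adjusted p = 0.012). Bdnf, the neurotrophin gene, had no kept peak in MGE and 0.832 and 1.77 kb in CTX (adjusted p = 0.037). Ptn, a growth factor gene of radial glia, had 0.863 and 1.06 kb against 6.48 and 7.26 kb (-2.34 ± 0.17). At all 5 genes the cultures did not overlap, which holds for every called gene and is no further evidence.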
